A study of Mus musculus with 6 samples.

Results

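The nuclear genes of respiratory complexes II, III, IV and V were compared between oocytes of *Bnc1*tr/tr and wild-type (WT) mice. The members were chosen by a pattern of gene symbols that covers the numbered subunits, part of the assembly factors and the somatic cytochrome c gene, and 63 of the 17577 listed genes matched. Assembly factors and subunits with other symbols are given separately. They comprised 8 genes of complex II, 12 of complex III, the cytochrome c gene *Cycs*, 25 of complex IV and 17 of complex V. By role, 46 encode subunits, with *Cox7a2l* counted among them, 16 encode assembly or coupling factors and 1 encodes the carrier. The oocytes were at the germinal vesicle stage, the arrested stage with an intact nucleus, and came from 12-week-old C57BL/6 J mice. The study describes collecting such oocytes, from mice of both genotypes, after an injection of pregnant mare serum gonadotropin. The 3 *Bnc1*tr/tr libraries came from mice homozygous for a small frameshift deletion in *Bnc1*, which encodes the zinc finger protein basonuclin 1, and the 3 WT libraries from mice without it. The allele is present in every cell of the mouse, not only in oocytes. Each cDNA was made from a single oocyte by a modified Smart-seq2 procedure. The study describes the libraries of a group as biological replicates, and the labels do not tie them to animals, so p-values measure the spread between these libraries.

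The respiratory chain passes electrons from NADH and succinate to oxygen in the inner mitochondrial membrane, and ATP synthase, or complex V, uses the resulting proton gradient to make ATP. Complex II is succinate dehydrogenase, complex III hands electrons to cytochrome c, and complex IV, cytochrome c oxidase, reduces oxygen. Complex II is built of nuclear gene products only, whereas the catalytic core of complex IV comes from the mitochondrial genome and is surrounded by nuclear-encoded subunits, several of which exist as alternative isoforms with different tissue distributions. The growing oocyte depends on oxidative phosphorylation for ATP and holds a very large number of mitochondria.

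The coding sequences below are shown because the largest differences lay between such alternative isoforms. They were taken from GENCODE M21 (GRCm38), with capitals for each base that differs from, or has no partner in, the aligned isoform. *Cox4i1* (chromosome 8, coding bases between 120669310 and 120674107, plus strand) and *Cox4i2* (chromosome 2, 152755155 to 152764881, plus strand) are shown over coding bases 1 to 300. *Cox7a2* (chromosome 9, 79755547 to 79759657, minus strand), *Cox7a1* (chromosome 7, 30184231 to 30185967, plus strand), *Cox8a* (chromosome 19, 7215389 to 7217512, minus strand) and *Cox8c* (chromosome 12, 102899366 to 102900337, plus strand) are shown in full.
Cox4i1: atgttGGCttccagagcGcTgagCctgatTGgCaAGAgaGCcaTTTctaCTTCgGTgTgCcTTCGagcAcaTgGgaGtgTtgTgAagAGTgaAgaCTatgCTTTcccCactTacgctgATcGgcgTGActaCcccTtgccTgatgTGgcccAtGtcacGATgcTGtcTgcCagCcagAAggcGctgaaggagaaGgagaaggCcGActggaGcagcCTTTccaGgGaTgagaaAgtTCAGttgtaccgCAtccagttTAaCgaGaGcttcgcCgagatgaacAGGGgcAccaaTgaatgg
Cox4i2: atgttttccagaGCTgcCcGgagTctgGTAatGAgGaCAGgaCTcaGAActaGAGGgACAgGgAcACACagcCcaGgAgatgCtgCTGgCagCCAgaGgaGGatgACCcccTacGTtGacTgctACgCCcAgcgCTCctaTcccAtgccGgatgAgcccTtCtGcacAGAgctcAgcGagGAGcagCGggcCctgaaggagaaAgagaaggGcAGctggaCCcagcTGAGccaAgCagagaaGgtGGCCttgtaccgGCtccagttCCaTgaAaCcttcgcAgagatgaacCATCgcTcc
Cox7a2: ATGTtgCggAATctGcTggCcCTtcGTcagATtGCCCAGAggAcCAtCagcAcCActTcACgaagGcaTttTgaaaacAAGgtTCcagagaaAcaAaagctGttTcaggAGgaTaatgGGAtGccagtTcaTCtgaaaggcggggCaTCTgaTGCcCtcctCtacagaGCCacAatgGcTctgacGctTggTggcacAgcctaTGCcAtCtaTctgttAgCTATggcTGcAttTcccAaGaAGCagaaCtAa
Cox7a1: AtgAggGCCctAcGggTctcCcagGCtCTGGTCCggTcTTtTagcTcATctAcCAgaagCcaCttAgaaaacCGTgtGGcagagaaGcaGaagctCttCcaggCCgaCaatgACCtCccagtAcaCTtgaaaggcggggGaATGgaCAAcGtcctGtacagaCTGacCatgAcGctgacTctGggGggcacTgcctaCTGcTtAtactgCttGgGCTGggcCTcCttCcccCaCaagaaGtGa
Cox8a: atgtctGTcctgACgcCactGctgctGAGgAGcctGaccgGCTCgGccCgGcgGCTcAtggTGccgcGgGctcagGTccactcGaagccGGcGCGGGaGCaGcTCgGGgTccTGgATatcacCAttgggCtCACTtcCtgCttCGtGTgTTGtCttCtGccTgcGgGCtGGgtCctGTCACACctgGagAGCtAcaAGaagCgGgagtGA
Cox8c: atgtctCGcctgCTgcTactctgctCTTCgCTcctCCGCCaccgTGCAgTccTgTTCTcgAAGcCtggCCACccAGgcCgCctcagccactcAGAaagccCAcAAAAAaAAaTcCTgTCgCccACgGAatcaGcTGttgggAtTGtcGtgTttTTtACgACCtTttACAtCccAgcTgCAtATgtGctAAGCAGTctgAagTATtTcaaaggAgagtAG

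Aligned bases were identical at 69.8% between *Cox4i1* and *Cox4i2*, at 64.0% between *Cox7a2* and *Cox7a1* and at 57.9% between *Cox8a* and *Cox8c*. None of the 31-base words of the *Cox4i2*, *Cox7a1* or *Cox8c* transcripts occurred in a transcript of another gene, so reads of that length could not be split between them and their relatives. Among all members this overlap was largest for *Cox16*, with 88.8% of its words also present in another gene, followed by *Atp5l* (69.6%), *Atp5h* (59.4%), *Uqcrb* (54.3%) and *Atp5o* (46.4%), whose levels are uncertain for that reason.

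*Bnc1* was read 9.04, 6.51 and 5.83 FPKM, the number of fragments scaled by transcript length and by the mapped total, in *Bnc1*tr/tr oocytes and 13.2, 12.5 and 16.2 FPKM in WT. The log2 fold change, always *Bnc1*tr/tr minus WT on the log2(FPKM + 1) scale, was -0.89 ± 0.20 (SE; limma with Benjamini-Hochberg adjustment over all tested genes, adjusted p = 0.009). A small deletion does not remove the transcript, so this is a limited check of the labels. All 11 oocyte markers, among them *Zp3* and *Gdf9*, averaged at least 1 FPKM in both groups. By the rule given below, *Zp2* (-0.74, adjusted p = 0.032) and *Nlrp5* (-0.62, adjusted p = 0.026) were lower and 0 were higher. That is 18.2% called, against 31.8% of all tested genes. Depth, estimated from the steps between low FPKM values, was 13.3 to 17.1 M (mega) fragments in *Bnc1*tr/tr and 14.9 to 22.4 M in WT, and 3 fragments on a transcript of 1 kb corresponded to 0.134 to 0.225 FPKM. Correlations of log2 values between libraries were 0.983 to 0.993 within groups and 0.945 to 0.959 between them. FPKM is relative to the library total, so a fall of a transcript per oocyte cannot be told apart from a rise of other transcripts. A change of the total RNA per oocyte cannot be seen either.

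Most genes of the 4 complexes were at similar levels in both groups, and 3 nuclear subunits of complex IV stood far above the rest in *Bnc1*tr/tr oocytes. Of 63 members, 61 reached the mean of 1 FPKM needed for the test, all but *Cox7b2* and *Cox15*. A gene counted as changed if its adjusted p was under 0.05 and its log2 fold change was over 0.5 in size. By this rule 8 of the 61 members changed (13.1%), against 31.8% of all 10560 tested genes. Higher in *Bnc1*tr/tr were *Cox4i2*, *Cox7a1*, *Cox8c*, *Cox11*, *Uqcc3* and *Atp5g3*, that is 6 members, where 24.1% of all tested genes were higher. Lower were *Cox6a2* and *Cox16*, 2 members, where 7.68% of all tested genes were lower. *Cox11* and *Uqcc3* passed the filter on low values only through the *Bnc1*tr/tr libraries, so their calls had to be in that direction. *Cox4i2*, *Cox7a1* and *Cox8c* were called in all 16 alternative analyses. Both lower calls were lost without *Bnc1*tr/tr replicate 1, without *Bnc1*tr/tr replicate 3, without WT replicate 2 and without WT replicate 3, each of which left 0 lower members, and with a pseudocount of 0.1.

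Most members are abundant transcripts, and 50 of the 61 averaged at least 30 FPKM over the 6 libraries. Only *Cox4i2* and *Cox16* of these 50 changed, against 23.4% of the 2964 tested genes at or above that level, of which 13.8% were higher and 9.62% lower. For 50 of the 61 members the 95% interval of the log2 fold change lay within 1 of 0. The 3 libraries of a group lay wholly above or below those of the other in 18 of 61 members, against 46.8% of all tested genes. At an unadjusted p under 0.05 there were 11 of the 61 members, the 8 above with *Uqcrb*, *Uqcc2* and *Cox6a1*. Among all tested genes the share at that level was at least the 31.8% called, since an unadjusted p never exceeds its adjusted value.

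The median log2 fold change of the tested members was -0.05, against 0.15 over all tested genes and -0.02 over those of at least 30 FPKM. By complex it was -0.05 in complex II, -0.06 in complex III, 0.05 in complex IV and -0.06 in complex V. The median of the members minus that of the 10560 genes was -0.20. Upper-quartile scaling of the libraries moved the median of all genes to -0.09 and that of the members to -0.32, and median-ratio scaling to -0.05 and -0.27. The split of the members into higher and lower calls was 5 to 8 with upper-quartile scaling, 5 to 4 with median-ratio scaling and 3 to 3 with quantile normalization, which placed the members 0.07 above the median of all genes.

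**Figure D1:**
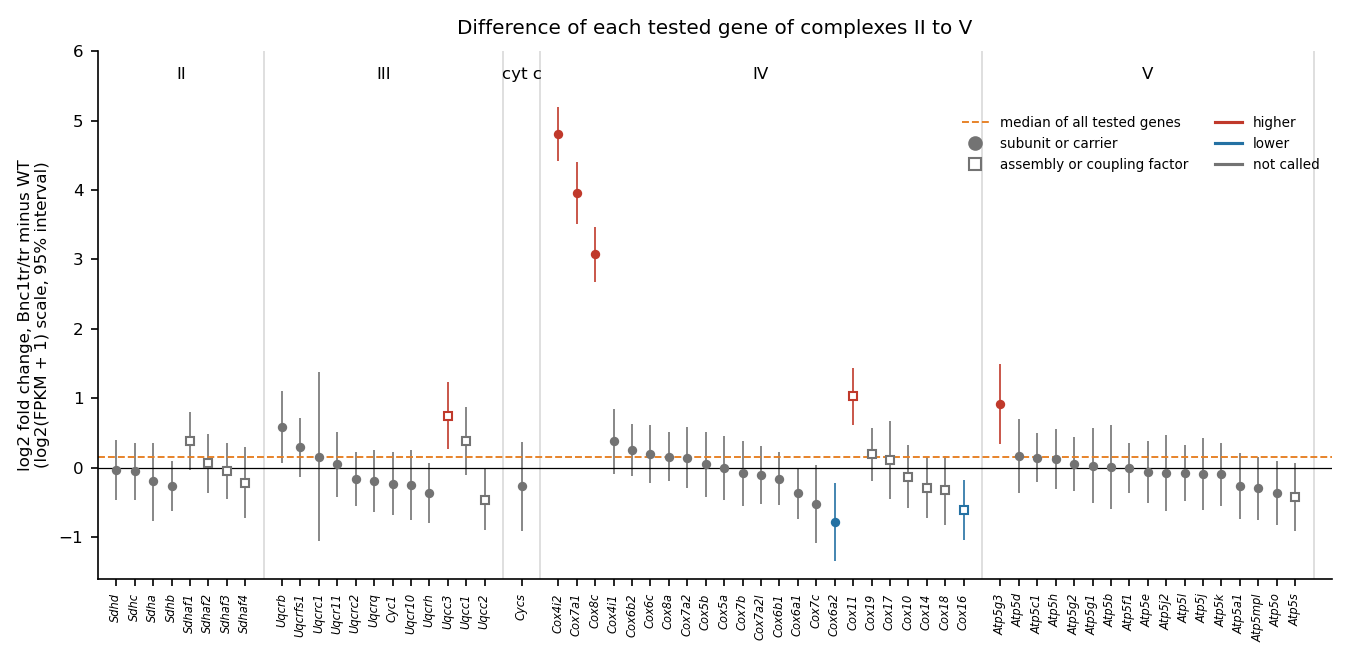
Log2 fold change of each of the 61 tested members, *Bnc1*tr/tr minus WT on the log2(FPKM + 1) scale (vertical axis), with its 95% interval, grouped along the horizontal axis by complex. *Cox4i2* at 4.81, *Cox7a1* at 3.95 and *Cox8c* at 3.08 stand above all other members, which lie between -0.78 and 1.03, and the dashed line is the median of all tested genes (0.15).

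Complex IV held the 3 large differences. *Cox4i2*, the alternative isoform of subunit 4, known from lung and from cells at low oxygen, was read 295, 365 and 298 FPKM in *Bnc1*tr/tr and 11.7, 10.1 and 9.41 FPKM in WT. The groups were far apart, with a log2 fold change of 4.81 ± 0.17 (SE, adjusted p = 9.9e-07) and a ratio of mean FPKM of 30.6. Its common counterpart *Cox4i1*, the most abundant complex IV member, was read 862, 1269.6 and 1309 FPKM in *Bnc1*tr/tr and 832, 784 and 996 FPKM in WT. Those libraries overlapped, and the log2 fold change of *Cox4i1* was 0.38 (95% interval -0.09 to 0.85, adjusted p = 0.20). *Cox4i2* moved from the 72.4th percentile of all listed genes in WT to the 97.7th in *Bnc1*tr/tr.

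*Cox7a1*, the isoform of subunit 7a typical of heart and skeletal muscle, was read 43.7, 40.3 and 43.7 FPKM in *Bnc1*tr/tr and 1.28, 1.74 and 2.54 FPKM in WT. Its log2 fold change was 3.95 ± 0.19 (SE, adjusted p = 2.8e-06). The WT values rest on an estimated 5.05 to 13.9 fragments, so the ratio of 23.0 is less precise than the call. *Cox7a2*, the form of this subunit found in most tissues, was read 189.6, 248 and 251 FPKM in *Bnc1*tr/tr and 193, 182 and 248 FPKM in WT, with overlapping groups and a log2 fold change of 0.14 (95% interval -0.30 to 0.59).

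*Cox8c*, an isoform of subunit 8 known from testis, was read 42.4, 43 and 52.6 FPKM in *Bnc1*tr/tr and 4.2, 5.29 and 4.21 FPKM in WT. Its log2 fold change was 3.08 ± 0.17 (SE, adjusted p = 4.5e-06). The WT values of *Cox8c* rest on an estimated 14.9 to 23.2 fragments, so the ratio of 10.1 is less precise than the call. *Cox8a*, the widely expressed isoform, was read 315, 265 and 303 FPKM in *Bnc1*tr/tr and 262, 270.4 and 255 FPKM in WT. The *Cox8a* groups overlapped through *Bnc1*tr/tr replicate 2, and its log2 fold change was 0.16 (95% interval -0.19 to 0.52).

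As a share of the FPKM of its isoform pair, *Cox4i2* made up 22.1% ± 3.49 (SD, n = 3) in *Bnc1*tr/tr and 1.2% ± 0.236 in WT. *Cox7a1* made up 15.8% ± 2.53 of *Cox7a1* and *Cox7a2* in *Bnc1*tr/tr and 0.872% ± 0.188 in WT. *Cox8c* made up 13.5% ± 1.51 of *Cox8a* and *Cox8c* in *Bnc1*tr/tr and 1.71% ± 0.185 in WT. No library of one group reached a share of the other group in these 3 pairs, and each gave p = 0.10 in an exact two-sided permutation test, the smallest that 3 against 3 allows. The common isoform thus remained the larger part of its pair in every library. The sum of *Cox4i1* and *Cox4i2* was 1157, 1635 and 1606 FPKM in *Bnc1*tr/tr and 844, 794 and 1006 FPKM in WT, without overlap and 1.66 times as high on average.

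**Figure D2:**
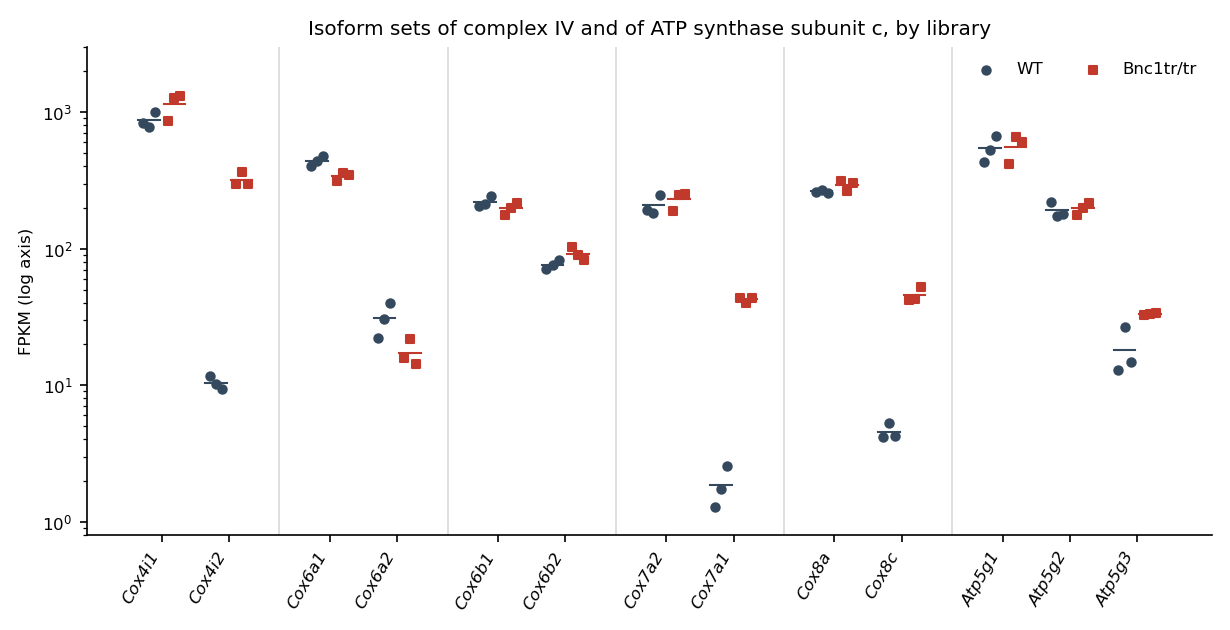
FPKM (vertical log axis) of the isoform sets of complex IV subunits 4, 6a, 6b, 7a and 8 and of ATP synthase subunit c (horizontal axis), with 1 point per library and a line at each group mean (n = 3). *Cox4i2*, *Cox7a1* and *Cox8c* are 30.6, 23.0 and 10.1 times as high in *Bnc1*tr/tr as in WT, while their common counterparts overlap between the groups.

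The other isoform sets of complex IV showed smaller differences. *Cox6a2*, the isoform of subunit 6a from heart and skeletal muscle, was read 15.9, 21.7 and 14.3 FPKM in *Bnc1*tr/tr and 22.0, 30.4 and 40.2 FPKM in WT. It fell by 0.78 on the log2 scale (SE 0.25, adjusted p = 0.040), the opposite direction to *Cox7a1*. Its counterpart *Cox6a1* was read 311, 360.3 and 345 FPKM in *Bnc1*tr/tr and 402, 442 and 473 FPKM in WT, without overlap, at a log2 fold change of -0.37 (adjusted p = 0.11), so the share of *Cox6a2* in the pair was 4.83% ± 0.857 (SD, n = 3) against 6.48% ± 1.32 (exact permutation p = 0.20). With upper-quartile or median-ratio scaling or a correction for transcript length, *Cox6a1* too was called lower.

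*Cox6b2*, a subunit 6b isoform known from testis, was already plentiful in WT oocytes at 71.5, 76.0 and 82 FPKM, and was read 103, 90.0 and 82.1 FPKM in *Bnc1*tr/tr. Its log2 fold change was 0.26 (95% interval -0.12 to 0.63, adjusted p = 0.27). It held 31.9% ± 4.72 (SD, n = 3) of the pair with *Cox6b1* in *Bnc1*tr/tr and 25.8% ± 0.566 in WT, without overlap (exact permutation p = 0.10, the smallest possible). *Cox6b1* itself averaged 197 FPKM in *Bnc1*tr/tr and 221 FPKM in WT (log2 fold change -0.16, adjusted p = 0.50). *Cox7a2l*, a relative of subunit 7a classed as a factor for supercomplexes of complexes III and IV, averaged 345 and 368 FPKM (log2 fold change -0.10, adjusted p = 0.70). Its function in these mice was not tested. *Cox7b* averaged 176 and 188 FPKM (-0.08, adjusted p = 0.80), and its testis isoform *Cox7b2* was at 0 to 0.36 FPKM in *Bnc1*tr/tr and listed at 0 in every WT library.

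Markers of other ovarian cells are given beside these results, and they did not move as one with the groups. The summed level of the 12 listed granulosa and cumulus cell markers was 362 to 428 FPKM in *Bnc1*tr/tr and 200.3 to 328 FPKM in WT. Most of it was *Serpine2*, which was not called (log2 fold change 0.48, adjusted p = 0.12). Of the 7 tested markers, 3 were called higher and 0 lower, where 24.1% of all tested genes were higher and 7.68% lower. The higher ones were *Fshr*, the receptor of follicle-stimulating hormone (15.0 times as high, log2 fold change 2.24, adjusted p = 1.1e-04), *Cyp11a1* (4.48 times, adjusted p = 0.0013) and *Kitl* (2.15 times, adjusted p = 0.018). *Fshr* was at 0.31, 0.74 and 0 FPKM in WT. It passed the filter only through the *Bnc1*tr/tr libraries, so its call had to be in that direction. *Inha* (0.09 to 1.81 FPKM against 0.04 to 6.78 FPKM in WT, -1.11, adjusted p = 0.24) and *Hsd3b1* (0 to 0.1 FPKM against 0 to 1.53 FPKM, below the filter) went the other way without a call. *Foxl2* was at 0.03 FPKM or less in every library. The 5 listed theca and stroma markers summed to 5.35 to 7.53 FPKM in *Bnc1*tr/tr and 1.54 to 2.09 FPKM in WT, most of it *Dcn*, which was called higher (log2 fold change 1.44, adjusted p = 5.1e-04). *Pdgfra*, below the filter, was at 0.38 to 0.63 FPKM in *Bnc1*tr/tr and 0.04 to 0.07 FPKM in WT, *Col1a1* was at 0.01 FPKM or less and *Cyp17a1* at 0.32 FPKM or less. The 3 endothelial markers summed to 3.69 to 6.67 FPKM in *Bnc1*tr/tr and to 7.62 FPKM or more in WT, most of it *Pecam1*, which was called lower (-1.02, adjusted p = 0.0048), whereas *Kdr*, below the filter, was at 0.53 to 1.54 FPKM in *Bnc1*tr/tr and 0.07 to 0.12 FPKM in WT. The 7 immune and blood markers summed to 68.0 FPKM at most and 0.130 FPKM at least in *Bnc1*tr/tr, the least in replicate 3, and were at 0 in WT. Of the 4 tested immune and blood markers, 0 were called. The part of these cell types in the differences of the members was not tested.

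The remaining nuclear subunits of complex IV did not pass the test. *Cox5a* was read 597, 925 and 780.2 FPKM in *Bnc1*tr/tr and 683, 721 and 881 FPKM in WT, and *Cox5b* 516, 734 and 661 FPKM and 525, 566 and 764 FPKM. Both are core-proximal subunits present in a single form, and their log2 fold changes were 0.00 (95% interval -0.47 to 0.46) and 0.05 (-0.43 to 0.52). *Cox6c* averaged 671 FPKM in *Bnc1*tr/tr and 588 FPKM in WT. *Cox7c* was read 376, 499.7 and 448 FPKM in *Bnc1*tr/tr and 505, 539 and 912 FPKM in WT, without overlap, and its log2 fold change of -0.52 did not pass the test (adjusted p = 0.14). The 14 nuclear subunits other than *Cox4i2*, *Cox7a1* and *Cox8c*, with *Cox7a2l* counted among them, were summed. Complex IV so stood at 5354 ± 779 FPKM in *Bnc1*tr/tr and 5284 ± 811 FPKM in WT (SD, n = 3).

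Among the assembly factors of complex IV, *Cox11*, which delivers copper to the catalytic core, was read 2.21, 1.97 and 2.67 FPKM in *Bnc1*tr/tr and 0.46, 0.88 and 0.51 FPKM in WT (log2 fold change 1.03 ± 0.18 SE, adjusted p = 0.0025). *Cox16*, which takes part in assembling the core, was read 43.9, 60.1 and 54.1 FPKM in *Bnc1*tr/tr and 70.5, 77.5 and 94.3 FPKM in WT (-0.61 ± 0.19 SE, adjusted p = 0.038). *Cox17*, the copper chaperone of the intermembrane space, averaged 641 FPKM in *Bnc1*tr/tr and 606 FPKM in WT and was the most abundant of the 8. The other 4 tested factors, *Cox10*, *Cox14*, *Cox18* and *Cox19*, had log2 fold changes of -0.32 to 0.19 and did not pass the test, and *Cox15*, which with *Cox10* makes haem a, was at 0.81 to 0.94 FPKM in *Bnc1*tr/tr and 0.32 to 0.7 FPKM in WT.

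None of the 8 members of complex II passed the test, and all 8 intervals lay within 1 of 0 on the log2 scale. *Sdha*, the flavoprotein that oxidises succinate, was read 50.9, 33.5 and 37.3 FPKM in *Bnc1*tr/tr and 61.2, 47.1 and 34.1 FPKM in WT (log2 fold change -0.20, adjusted p = 0.57). *Sdhb*, the iron-sulfur subunit, was read 131, 152 and 138 FPKM in *Bnc1*tr/tr and 169, 159 and 179 FPKM in WT. The *Sdhb* groups did not overlap, but the log2 fold change was only -0.27 (95% interval -0.63 to 0.09, adjusted p = 0.23), and the gene was called lower with upper-quartile scaling alone. *Sdhd*, a membrane anchor and the most abundant member of the complex, averaged 321 ± 37.8 FPKM in *Bnc1*tr/tr and 332 ± 59.0 FPKM in WT (SD, n = 3). The 4 assembly factors, *Sdhaf1* to *Sdhaf4*, had log2 fold changes of -0.22 to 0.38, the highest being *Sdhaf1* (adjusted p = 0.14).

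In complex III the 9 subunits did not pass the test. *Uqcrfs1*, the Rieske iron-sulfur protein, was read 71.5, 60.7 and 69.9 FPKM in *Bnc1*tr/tr and 67.2, 52.8 and 45.9 FPKM in WT (log2 fold change 0.30, adjusted p = 0.27). *Cyc1*, the cytochrome c1 subunit, was read 20.6, 21.2 and 19.6 FPKM in *Bnc1*tr/tr and 30.9, 24.1 and 18.8 FPKM in WT (-0.23, adjusted p = 0.42). *Uqcr11*, a small subunit and the most abundant member of the complex, averaged 750.2 FPKM in *Bnc1*tr/tr and 736 FPKM in WT (0.05, adjusted p = 0.89). The subunit with the largest difference was *Uqcrb*, at 401, 449 and 453 FPKM against 224, 266 and 403 FPKM, which overlapped through WT replicate 3 (0.59, adjusted p = 0.080). *Uqcrc1*, a core protein, was the most scattered member, at 11.5, 2.93 and 4.63 FPKM against 7.03, 8.55 and 1.57 FPKM, and its interval from -1.06 to 1.38 leaves its difference undetermined at this number of libraries.

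Of the 3 assembly factors of complex III, *Uqcc3* was read 2.68, 1.66 and 1.81 FPKM in *Bnc1*tr/tr and 0.66, 1.27 and 0.53 FPKM in WT (log2 fold change 0.75 ± 0.21 SE, adjusted p = 0.025), where the WT values rest on an estimated 5.91 to 12.9 fragments. Leaving out replicate 1 or 3 of either group ended this call, as did 3 of the other alternatives. With a minimum mean of 5 FPKM *Uqcc3* was not tested. The partners *Uqcc1* and *Uqcc2*, which act together on newly made cytochrome b, pointed opposite ways. *Uqcc1* averaged 44.5 FPKM in *Bnc1*tr/tr and 34.5 FPKM in WT (0.39, adjusted p = 0.20), and *Uqcc2* 209 and 290.4 FPKM (-0.46, adjusted p = 0.10), with groups that did not overlap for either gene. *Cycs*, the somatic cytochrome c that shuttles electrons from complex III to complex IV, was read 112, 154 and 130.3 FPKM in *Bnc1*tr/tr and 104, 161 and 238 FPKM in WT (-0.27, 95% interval -0.92 to 0.37, adjusted p = 0.50). *Cyct*, its testis counterpart, was read 5.23, 9.65 and 14.4 FPKM in *Bnc1*tr/tr and 13.0, 12.5 and 16.1 FPKM in WT, and did not pass the test (-0.55, adjusted p = 0.20).

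Complex V had 1 changed member of 17. *Atp5g3*, the least abundant of the 3 genes for the membrane ring subunit c, was read 32.8, 33.3 and 33.7 FPKM in *Bnc1*tr/tr and 12.9, 26.7 and 14.8 FPKM in WT (log2 fold change 0.91 ± 0.25 SE, adjusted p = 0.024). The 3 genes encode the same mature ring protein. *Atp5g1* averaged 559 ± 129 FPKM in *Bnc1*tr/tr and 544 ± 123 FPKM in WT, and *Atp5g2* 197 ± 18.6 and 191 ± 25.1 FPKM (SD, n = 3), with log2 fold changes of 0.03 and 0.05. The sum over the 3 genes was 789 ± 144 FPKM in *Bnc1*tr/tr and 753 ± 106 FPKM in WT, of which *Atp5g3* made up 4.32% ± 0.822 and 2.44% ± 1.07 (exact permutation p = 0.10, the smallest possible). The call of *Atp5g3* was lost in 9 of 16 alternatives, including the removal of any *Bnc1*tr/tr library and all 3 changes of scaling.

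The catalytic head of complex V showed no called difference. *Atp5a1*, subunit alpha, was read 71.7, 70.9 and 71.5 FPKM in *Bnc1*tr/tr and 109, 91.3 and 64.1 FPKM in WT (log2 fold change -0.27, adjusted p = 0.37). With upper-quartile scaling alone, *Atp5a1* was called lower (-0.54). *Atp5b*, the catalytic subunit beta, was read 215, 167 and 210.0 FPKM in *Bnc1*tr/tr and 255, 227 and 126 FPKM in WT (0.01, 95% interval -0.59 to 0.62). *Atp5e*, subunit epsilon and the most abundant of all 63 members, was read 908, 1315 and 1201 FPKM in *Bnc1*tr/tr and 1091, 1096 and 1368 FPKM in WT (-0.06, adjusted p = 0.84). The 16 members that did not pass the test had log2 fold changes of -0.43 to 0.17. The lowest was *Atp5s*, a coupling factor B family protein, at 3.73, 6.41 and 7 FPKM against 7.73, 7.84 and 7.8 FPKM (adjusted p = 0.17).

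Summed over all 63 members, the 4 complexes and cytochrome c made up 2.43% ± 0.235 of all FPKM in *Bnc1*tr/tr oocytes and 2.43% ± 0.254 in WT (SD, n = 3). Complex II held 0.151% ± 0.00692 in *Bnc1*tr/tr and 0.161% ± 0.00989 in WT, and complex III 0.378% ± 0.0251 and 0.394% ± 0.0522. Complex IV held 1.02% ± 0.110 and 0.948% ± 0.112, and complex V 0.869% ± 0.0926 and 0.901% ± 0.0930. The groups overlapped for each of these sums, and the ratio of the means lay between 0.935 for complex II and 1.07 for complex IV. The 3 assembly factors of complex III were the exception among the sums by role with more than 1 gene, at 0.0355% to 0.0404% in *Bnc1*tr/tr and 0.0408% to 0.0510% in WT, and *Uqcc2* made up most of both. No gene of the mitochondrial genome is among the listed symbols, so the mitochondrially encoded subunits were not analysed here.

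**Figure D3:**
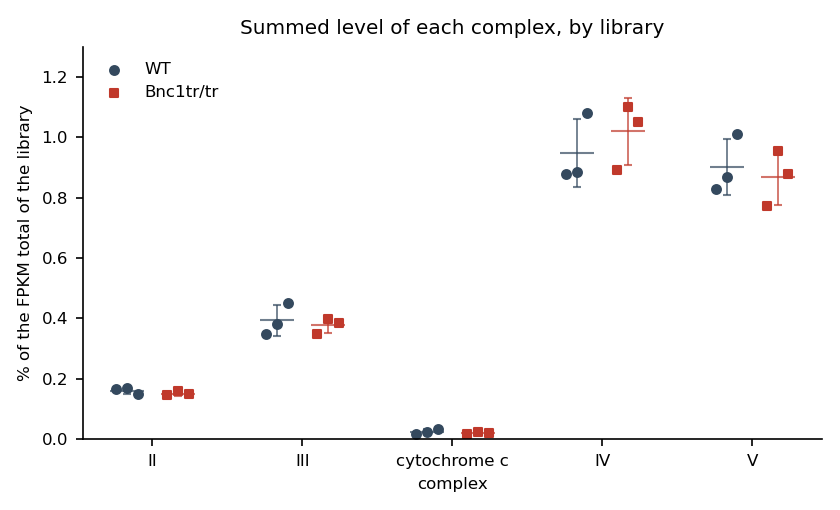
Summed FPKM of the members of each complex as a percentage of the FPKM total of the library (vertical axis), with 1 point per library and the mean ± SD of each group (n = 3). The groups overlap for complexes II, III, IV and V and for cytochrome c, with means from 0.0193% for cytochrome c to 1.02% for complex IV.

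Members varied together from library to library within a group. *Bnc1*tr/tr replicate 1 was the lowest of its group in 41 of the 61 tested members, and WT replicate 3 was the highest of its group in 35. This spread went in part with transcript length, more so in WT than in *Bnc1*tr/tr. For the 32 members with a transcript under 1000 bases the median difference of WT replicate 3 from WT replicate 1 was 0.40 on the log2(FPKM + 1) scale, and for the 29 longer ones it was -0.32 (Pearson r with log2 length -0.43 across these 61 genes, which share their libraries and are not independent). In *Bnc1*tr/tr the median difference of replicate 2 from replicate 1 was 0.37 for the shorter and 0.05 for the longer members (Pearson r -0.22). For replicate 3 from replicate 1 it was 0.20 and 0.06 (r -0.21), and for replicate 3 from replicate 2 it was -0.10 for both (r 0.11). Between the group means the medians were -0.03 for the shorter and -0.05 for the longer members. *Atp5b* and *Uqcr11* show the contrast, since WT replicate 3 was the lowest library for the first and the highest for the second. A correction for transcript length left *Cox4i2*, *Cox7a1* and *Cox8c* called, ended the calls of *Cox16* (log2 fold change -0.58 in place of -0.61, adjusted p = 0.058) and *Uqcc3* (0.69 in place of 0.75, adjusted p = 0.067), and added *Cox6a1*, *Cox7c*, *Uqcc2* and *Uqcrh* as lower.

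**Figure D4:**
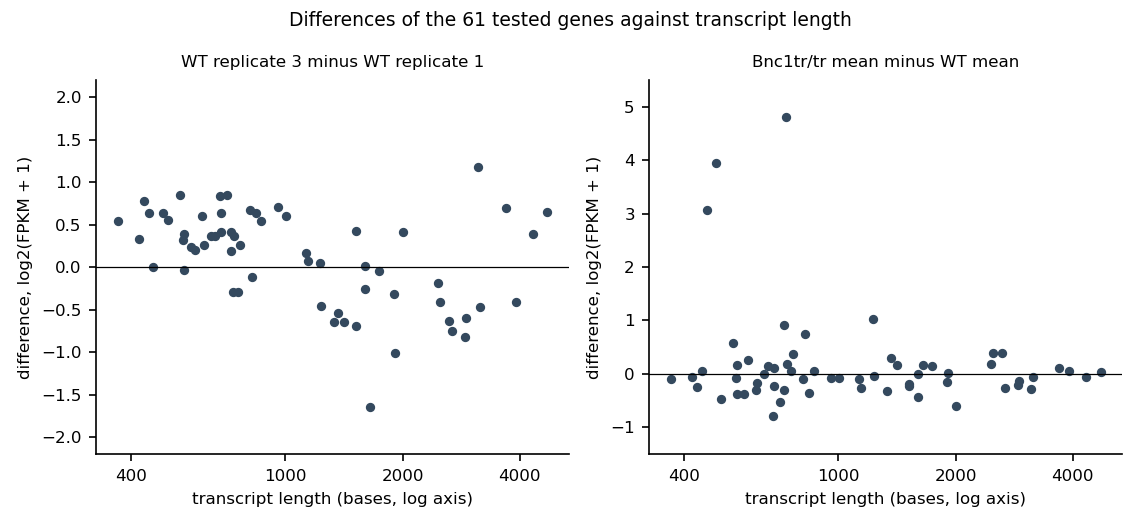
Difference on the log2(FPKM + 1) scale (vertical axes) of the 61 tested members against transcript length in bases (horizontal log axes), with WT replicate 3 minus WT replicate 1 on the left and the *Bnc1*tr/tr mean minus the WT mean on the right, and 1 point per gene. Short transcripts lie mostly above 0 and long ones mostly below 0 on the left (medians 0.40 and -0.32), and both lie around 0 on the right (-0.03 and -0.05).

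Other genes of the pathway were taken from lists written by hand. Of 29 tested assembly and translation factors outside the 63 members, 4 were higher and 1 was lower, a share of 17.2% called against 31.8% of all tested genes. *Tmem70*, needed to build ATP synthase, was read 193, 198 and 198 FPKM in *Bnc1*tr/tr and 128, 97.1 and 92.9 FPKM in WT (log2 fold change 0.90, adjusted p = 0.0050). *Cox20* (0.91), *Coa3* (0.67) and *Sco1* (0.67), which serve the making of complex IV, were the other higher genes. *Bcs1l*, which inserts the Rieske protein into complex III, was the lower one (-0.61). *Sco1* averaged 0.713 FPKM in WT and passed the filter on low values only through the *Bnc1*tr/tr libraries, so its call had to be in that direction. Of 4 further subunits or partners with other symbols, only *Atpif1*, the inhibitor of ATP hydrolysis by complex V, changed, at 37.7, 53.1 and 44.9 FPKM against 60.7, 70.4 and 116 FPKM (-0.81, adjusted p = 0.040).

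Of 38 tested genes matching a symbol pattern for complex I subunits, 1 was higher (*Ndufa8*, 0.70) and 6 were lower. The lower ones had log2 fold changes of -0.72 to -0.55. The pattern also took in the related symbols *Ndufa4l2*, *Ndufb4b* and *Ndufb4c*, which were not called. In all, 18.4% of the 38 were called, against 31.8% of all tested genes, of which 24.1% were higher and 7.68% lower. Of 21 tested carriers and genes of the quinone pathway, 3 were higher and 1 was lower (19.0% called). Among the higher ones, *Sqor* averaged 0.627 FPKM in WT and passed the filter on low values only through the *Bnc1*tr/tr libraries. The largest difference there was in *Gpd2*, the mitochondrial glycerol-3-phosphate dehydrogenase, which feeds electrons to ubiquinone beside complex II, at 50.6, 46.3 and 40.4 FPKM in *Bnc1*tr/tr and 2.06, 1.26 and 3.92 FPKM in WT (3.84 ± 0.27 SE, adjusted p = 1.8e-05). Of 11 tested regulators of mitochondrial biogenesis, *Polg2* and *Tfb2m* were higher, and *Twnk*, the replicative helicase of mitochondrial DNA (-1.72), and *Polrmt*, the mitochondrial RNA polymerase (-1.26), were lower (36.4% called). *Tfam* (-0.13), *Gabpb1* (-0.02) and *Nrf1* (0.17) did not pass the test.

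The promoter windows of *Cox7a1* and *Cox7a2* are shown because this is the complex IV isoform pair with a called gene for which the promoter table held both windows. The 250 bases before the annotated start were taken from RefSeq (GRCm38.p6), *Cox7a1* at chr7:30183921-30184170 on the plus strand and *Cox7a2* at chr9:79759854-79760103 on the minus strand, with capitals for CG dinucleotides.
Cox7a1: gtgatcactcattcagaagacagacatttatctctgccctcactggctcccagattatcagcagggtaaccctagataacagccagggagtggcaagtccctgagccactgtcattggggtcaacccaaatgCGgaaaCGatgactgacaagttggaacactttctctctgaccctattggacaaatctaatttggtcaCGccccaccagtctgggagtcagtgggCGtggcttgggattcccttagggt
Cox7a2: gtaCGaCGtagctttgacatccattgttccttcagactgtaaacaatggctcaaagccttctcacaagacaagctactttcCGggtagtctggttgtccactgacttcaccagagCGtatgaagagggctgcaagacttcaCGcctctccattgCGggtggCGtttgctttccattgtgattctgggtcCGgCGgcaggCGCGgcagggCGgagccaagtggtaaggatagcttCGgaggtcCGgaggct

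The *Cox7a1* window held 4 CG dinucleotides and the *Cox7a2* window 14. The same 250 bases before the start were found for 49 of the 63 members and searched for motifs, with a median of 15.0 CG dinucleotides against 6.00 over the windows of all genes in the table. The letters CCGGAAG, a form of the ETS family motif, on either strand, occurred in 26.5% of the members and in 7.83% of 27025 genes. The letters GCATGCG, a core of the NRF1 motif, occurred in 14.3% and 3.43%, and GGGCGG, the SP family motif, in 44.9% and 35.4%. TATAAA occurred in 6.12% and 14.3%, CCAAT in 53.1% and 37.5%, ATGGCGG, a form of the YY1 motif, in 4.08% and 2.58%, and the E-box CANNTG in 61.2% and 69.3%. No letter set contains another. The *Cox7a1* window held CCAAT and E-box letters and none of the other 5 sets, and the *Cox7a2* window held GGGCGG and E-box letters. These are matches of letters only. The 27025 genes are all those of the promoter table, more than the 17577 listed here, and their windows held fewer CG dinucleotides. The shares therefore do not compare like sets.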

How the data were processed

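The authors deposited one table of FPKM values (fragments scaled by transcript length and by the mapped total) per library, rounded to 2 decimals, for the same 17577 genes. The submitters' processing notes name HISAT2 2.0.4, Bowtie2 2.2.5, RSEM 1.2.12 and the build GRCm38.p6, without stating which step used which. Read counts and library totals were not used here, so depth was estimated from the steps between low FPKM values, and intervals or floors from it cover counting error only. FPKM depends on the library total and on the transcript model, so a few abundant transcripts or another length shift the values of others.

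Groups and replicate numbers were taken from the labels. Genes averaging at least 1 FPKM across the 6 libraries were compared with limma 3.58.1 (R 4.3.3) on log2(FPKM + 1), which understates changes of low genes, with Benjamini-Hochberg adjustment over all 10560 tested genes. Calls needed an adjusted p under 0.05 and a log2 fold change over 0.5 in size. For isoform shares an exact permutation test (two-sided) was used. The fit was tested on simulated data. Named genes were all called members, the most abundant tested member of each complex, the catalytic and core subunits, and the isoform sets. The members and the lists of other genes were chosen with earlier results of these data known. Lengths and coding sequences came from GENCODE M21, and gene positions and promoter windows from RefSeq (GRCm38.p6). A word of 31 bases found in a transcript of another gene counted as shared. Alternatives were another pseudocount, other filters, scalings, variance models and thresholds, a correction for transcript length, a replicate block and leaving out each library. Figures were drawn with matplotlib 3.10.9.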

Additional observations from a re-analysis of the deposited data

How the results depend on the processing

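*Cox4i2*, *Cox7a1* and *Cox8c* were called higher in all 16 alternatives run, with log2 fold changes of 4.54 to 4.92, 3.67 to 4.50 and 2.83 to 3.30. Of 478 values of the 30 named genes, 443 kept their side of the threshold, 29 lost a call, 6 gained one and 0 called values changed sign, and the causes were not tested. *Cox11* and *Uqcc3* fell below a minimum mean of 5 FPKM, so they were tested in only 15 of the 16 alternatives. Of these, *Cox11* lost its call with quantile normalization (adjusted p = 0.051) and *Uqcc3* in 7. *Cox16* and *Cox6a2* lost theirs in 6 of the 16 alternatives each and *Atp5g3* in 9. The 8 changed members became 13 with upper-quartile scaling, 4 with a log2 threshold of 1, and 4 to 7 without a library. The 6 higher members became 3 with quantile normalization and 4 to 6 without a library. The 2 lower members became 0 with a pseudocount of 0.1 or a log2 threshold of 1, 1 without a filter on low values, 8 with upper-quartile and 4 with median-ratio scaling, 5 with the length correction, 6 with the length correction and replicate block, and 0 to 2 without a library. The higher share of all called genes was 75.8%, against 50.8% with upper-quartile scaling, 56.0% with median-ratio scaling and 46.6% with quantile normalization. Upper-quartile and median-ratio scaling moved the median log2 fold change of complex II to -0.32 and -0.27, of complex III to -0.33 and -0.28, of complex IV to -0.23 and -0.18 and of complex V to -0.34 and -0.28. The complex III median was -0.16 with a minimum mean of 5 FPKM or quantile normalization and -0.15 with the length correction, with or without the replicate block. *Bnc1* was called lower in all 16 alternatives (log2 fold change -1.19 to -0.78). Depth limits *Cox7a1*, *Cox8c*, *Cox11* and *Uqcc3* in WT, which rest on an estimated 23.2 fragments or fewer per library.

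Same-numbered libraries correlated at 0.28, -0.03 and 0.12 in their deviations from the group means, and not every library correlated best with its own number, so the numbers were not treated as pairs. With this number as a replicate block, 9 members changed (7 higher and 2 lower), all 8 above and *Uqcrb* (log2 fold change 0.59, adjusted p = 0.047), and 35.4% of all tested genes were called in place of 31.8%.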
